A study of Mus musculus with 12 samples.

Results

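The 10 genes described here mark the steps by which the adult hippocampus makes neurons: Dcx, Tubb2b, Sox4, Sox11 and Igfbpl1 of the immature granule neuron, Eomes and Neurog2 of the intermediate progenitor, and Cdc6, Mki67 and Top2a of the dividing cell. They were chosen by name and found through the Entrez identifier of each mouse symbol, and all 10 were present among the 27179 gene identifiers of the count table. Hippocampal RNA was sequenced from 12 mice aged 3 months. The 6 Nell-1+/6R mice (3 females and 3 males) were heterozygous for 6R, a chemically induced loss-of-function allele of Nell-1, which encodes a secreted protein first cloned from fetal brain. The 6 WT mice (3 females and 3 males) were their littermates, and each library came from 1 mouse. Heterozygotes keep 1 intact copy of the gene, every cell of the body carries the allele, and no cell type was sorted. The sources used here do not state the strain background.

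New granule neurons of the adult dentate gyrus arise from radial glia-like stem cells in the subgranular zone. These divide to give intermediate progenitors that switch on Neurog2 and Eomes (Tbr2), then neuroblasts and immature neurons that express doublecortin and a beta-tubulin of growing neurites under the control of SoxC transcription factors. Dividing cells are a very small share of this tissue at 3 months, so their transcripts are rare in whole-hippocampus RNA.

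The main comparison asked whether any of these 10 genes differed between Nell-1+/6R and WT hippocampus. None did by the thresholds used, an unadjusted p under 0.05 with a fold change above 1.5 in edgeR's quasi-likelihood test. These thresholds called 1.46% of all 17937 genes tested, so 0 of 10 is no departure from the background share. At an unadjusted p under 0.05 alone, 0 of the 10 passed, against 3.26% of all genes. With Benjamini-Hochberg adjustment over all genes tested, 0 of the 10 passed in edgeR, against 0.039% of all genes. Their median log2 fold change, Nell-1+/6R minus WT, was 0.00, beside -0.00 over all genes, with 5 positive and 5 negative. The median standard error over all genes was 0.12, and those of the 10 genes ran from 0.06 for Tubb2b to 0.62 for Igfbpl1, so the comparison was precise for the abundant genes and loose for the rare ones. In whole tissue, fewer cells of a type and less RNA per cell cannot be told apart.

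**Figure D1:**
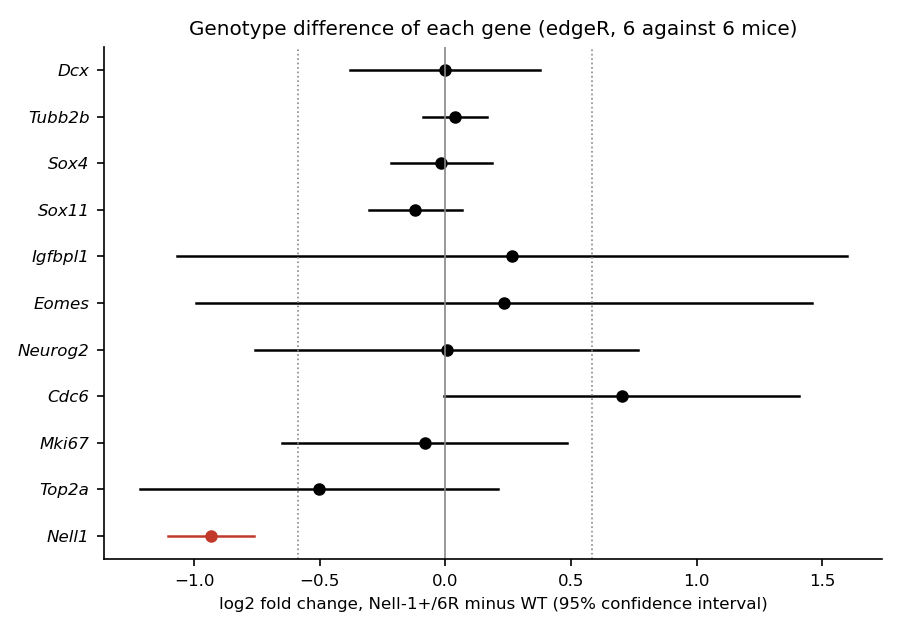
Log2 fold change (Nell-1+/6R minus WT, x axis) of each of the 10 genes and of Nell1 as points, with the 95% confidence interval of the edgeR fit as lines and a fold change of 1.5 in either direction as dotted lines. The intervals of all 10 genes include 0, that of Cdc6 only just, whereas Nell1 lies at -0.93.

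The genotype labels held in the reads. Nell1 stood at 30.6 to 44.0 CPM (counts scaled to a common library size with TMM factors) in the WT mice and at 17.2 to 20.8 in the Nell-1+/6R mice. The groups did not overlap, which 0.151% of all genes also showed, and the log2 fold change was -0.93 (SE 0.08, adjusted p = 0.00015, edgeR). Library totals ran from 10834905 to 16016317 counts and no pair of libraries held identical values. Among markers of other tissue, 8 of 10 leptomeningeal fibroblast genes were called lower in Nell-1+/6R (1.07% of all genes were called lower), with a summed level of 232 to 861 CPM against 453 to 1264 CPM in WT, and 4 of 10 were called without female WT replicate 1. Choroid plexus genes summed to between 43.0 and 5159 CPM in single mice, and 8 of 8 had a negative log2 fold change (median -1.01), with 0 of 8 called and 0 of 8 at an unadjusted p under 0.05 in edgeR. Without female Nell-1+/6R replicate 1, 8 of 8 were called lower, and with the library GC index described further on as a covariate, 2 of 8. Lists of oligodendrocyte precursor (11 tested), Cajal-Retzius (7 tested) and thalamic (7 tested) genes had 1 call each, against 1.46% of all genes: Bmp4 with a log2 fold change of -0.63, Lhx5 with 1.46 on 15 against 41 counts (untested under the 2 stricter filters), and Slc17a6 with -1.23 (adjusted p = 0.00350, edgeR). Microglial and ependymal lists had 0 calls and 0 genes at an unadjusted p under 0.05 in edgeR. The red blood cell list had 0 of 3 called, but 2 of 3 were lower in Nell-1+/6R at an unadjusted p under 0.05 in edgeR, against 3.26% of all genes. The Bmp4 call was lost in 7 of 24 alternative fits, among them 1 of those with genotype alone and the fit with the dentate score. The others left out replicate 2 of the Nell-1+/6R females, 2 or 3 of the Nell-1+/6R males or 2 or 3 of the WT males. Leaving out 1 mouse moved its log2 fold change between -0.77 and -0.49. The Cajal-Retzius list had 2 calls without replicate 1 or 2 of the Nell-1+/6R females, and the red blood cell list 2 with the dentate score. The part of these tissues in the values below was not tested.

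Per length, the 10 genes spanned a wide range of abundance. Levels are given as RPKM, counts scaled by the length of the annotated exons and by library size, in the WT mice. Percentiles rank the mean over all 12 mice among the tested genes that have an annotated exon length. Tubb2b led with 23.3 ± 2.56 RPKM (SD, n = 6), at the 88.1st percentile. Sox4 followed with 4.64 ± 0.683 RPKM and Sox11 with 3.01 ± 0.296 RPKM, and each of these exceeded the next gene in the order in 12 of 12 mice. Dcx reached 0.783 ± 0.128 RPKM. Below it came Neurog2 (0.579 RPKM), Igfbpl1 (0.280 RPKM), Mki67 (0.133 RPKM), Eomes (0.124 RPKM), Cdc6 (0.103 RPKM) and Top2a (0.0868 RPKM, the 4.56th percentile). From Dcx downward the WT ranges of each neighbouring pair in this order overlapped. Within mice, the higher gene of such a pair exceeded the lower in 6 to 10 of 12 mice, and the order was not tested. The immature neuron genes thus supplied nearly all of the reads: the 5 together summed to between 105 and 119 CPM in every mouse, whereas the 3 dividing-cell genes summed to between 1.67 and 3.30 CPM.

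**Figure D2:**
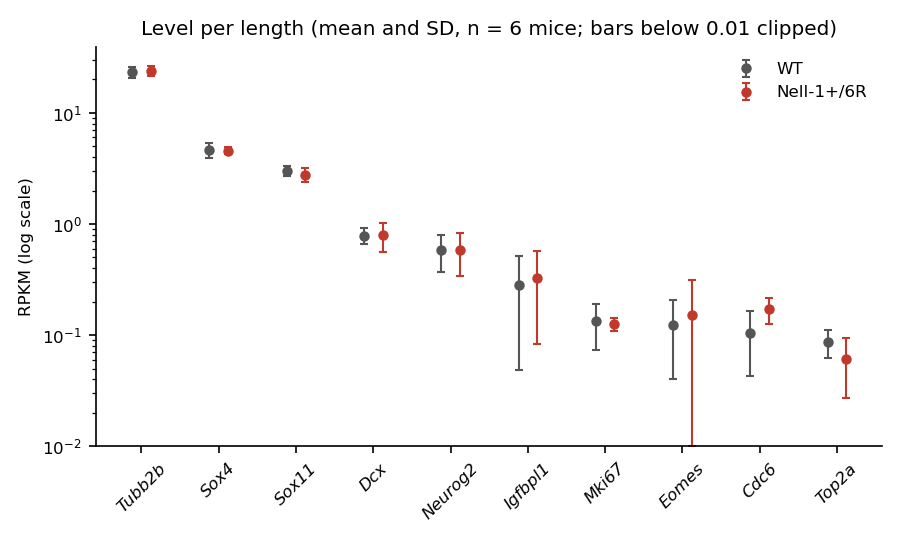
RPKM (log axis) of each gene in WT (grey) and Nell-1+/6R (red) mice, as mean and SD over 6 mice. Tubb2b stands at 23.3 RPKM and Top2a at 0.0868 RPKM in WT, and the 2 genotypes lie close together for the immature neuron genes.

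Dcx (Entrez 13193, chrX:143855842-143933396, GRCm38, minus strand) encodes doublecortin, the microtubule-binding protein used as the usual mark of newborn neurons. The WT females had 12.04, 8.19 and 10.9 CPM and the WT males 8.72, 11.0 and 8.52 CPM. In Nell-1+/6R mice the females had 6.52, 8.15 and 11.0 CPM and the males 9.40, 9.62 and 15.3 CPM. The lowest and the highest mouse were both Nell-1+/6R, and the groups overlapped. The fitted log2 fold change was -0.00 (SE 0.18, adjusted p = 1.00 in edgeR, exact permutation p = 0.935), and its 95% interval, 0.768- to 1.30-fold, ends inside a 1.5-fold change in either direction. Within sex the point estimates had opposite signs, -0.28 in females and 0.28 in males, each with an SE of 0.24. The interaction itself, 0.55 (SE 0.34, adjusted p = 0.987, edgeR), did not pass. Leaving out 1 mouse moved it between 0.29 (without male Nell-1+/6R replicate 3) and 0.78, and it had an unadjusted p under 0.05 only without female Nell-1+/6R replicate 3 (0.78). Of the 10 genes, 0 had an unadjusted interaction p under 0.05 in edgeR, against 3.09% of all genes, and Dcx had the lowest.

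Tubb2b (Entrez 73710, chr13:34127008-34130354, GRCm38, minus strand) encodes a beta-tubulin that is abundant in migrating and neurite-forming neurons, and it was the most precisely measured of the 10. In WT it ranged from 46.5 to 61.0 CPM with a median of 53.6, and in Nell-1+/6R from 47.7 to 64.2 CPM with a median of 53.1. Genotype gave a log2 fold change of 0.04 (SE 0.06, adjusted p = 1.00 in edgeR, exact permutation p = 0.675), with a 95% interval of 0.940- to 1.12-fold. Split by sex, the 6 females held 52.7 to 64.2 CPM and the 6 males 46.5 to 53.4 CPM, ranges that just overlap, with a log2 difference, male minus female, of -0.23 (adjusted p = 0.868, edgeR). Sex was not a planned comparison. Tubb2b, Sox11 and Eomes, 3 of the 10 genes, had an unadjusted p under 0.05 for it, as did 4.72% of all genes.

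Part of the Tubb2b signal rests on sequence that is shared with a neighbouring copy. Of its 2272 possible 50-base stretches, the stated read length, 36.9% also occur in other annotated transcripts, chiefly those of Tubb2a (31.3%) and of the pseudogene Tubb2a-ps2 (16.2%). The coding sequences of Tubb2b and Tubb2a are both 1338 bases long and differ at 47 positions. Their last 90 coding bases, before the stop codon, are shown because they include the acidic tail in which tubulin isotypes usually differ most. Capitals mark the 3 bases at which they differ. Each of these is the last base of its codon and leaves the amino acid unchanged, so both copies encode the same tail. The stretches lie at chr13:34127474-34127563 for Tubb2b and chr13:34074471-34074560 for Tubb2a (GRCm38, minus strand, GENCODE transcripts).
Tubb2b: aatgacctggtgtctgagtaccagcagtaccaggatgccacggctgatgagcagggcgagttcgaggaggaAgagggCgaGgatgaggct
Tubb2a: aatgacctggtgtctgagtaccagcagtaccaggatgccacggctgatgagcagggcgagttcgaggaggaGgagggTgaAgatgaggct
A 50-base read from the start of this window matches both copies equally well, so the Tubb2b value is uncertain to the extent that the counting split or dropped such reads.

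Sox4 (Entrez 20677, chr13:28948919-28953699, GRCm38, minus strand) and Sox11 (Entrez 20666, chr12:27334268-27342718, GRCm38, minus strand) are single-exon SoxC transcription factors needed for neuronal differentiation in the dentate gyrus. Sox4 ranged from 17.7 to 26.3 CPM in WT (median 22.2) and from 19.3 to 23.8 CPM in Nell-1+/6R (median 22.0). Every Nell-1+/6R mouse lay inside the WT range, and the log2 fold change was -0.02 (SE 0.09, adjusted p = 1.00 in edgeR, exact permutation p = 0.939, 95% interval 0.859- to 1.14-fold). An annotated lincRNA on the opposite strand, Gm26735, covers 2616 exonic bases of Sox4, and 54.1% of its stretches lie there. The sources used here do not state whether counting used strand, so reads of the overlapping genes could not be separated. Sox11 ranged from 21.2 to 27.6 CPM in WT (median 25.3) and from 17.3 to 26.4 CPM in Nell-1+/6R (median 23.8). The lowest value belonged to a Nell-1+/6R female, the ranges otherwise overlapped, and the log2 fold change was -0.12 (SE 0.09, adjusted p = 1.00 in edgeR, exact permutation p = 0.312, 95% interval 0.810- to 1.05-fold). It moved between -0.17 and -0.06 when each mouse was left out in turn, the latter without replicate 1 of the Nell-1+/6R females. By sex, Sox11 had a log2 difference of 0.22, male minus female (adjusted p = 0.868, edgeR), the opposite sign to Tubb2b. No 50-base stretch of Sox11 occurred in another gene.

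Igfbpl1 (Entrez 75426, chr4:45809507-45826827, GRCm38, minus strand) encodes a secreted protein related to the insulin-like growth factor binding proteins and is a marker of neuroblasts. It was counted 153 times over the 12 mice. The WT females had 2, 29 and 4 counts and the WT males 11, 12 and 9, and in Nell-1+/6R the females had 20, 13 and 8 counts and the males 12, 32 and 1. Very low and high mice fell in both genotypes. A log2 fold change of 0.26 was fitted (SE 0.62, adjusted p = 1.00 in edgeR, exact permutation p = 0.766), with an interval of 0.476- to 3.03-fold that spans changes well past the threshold.

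**Figure D3:**
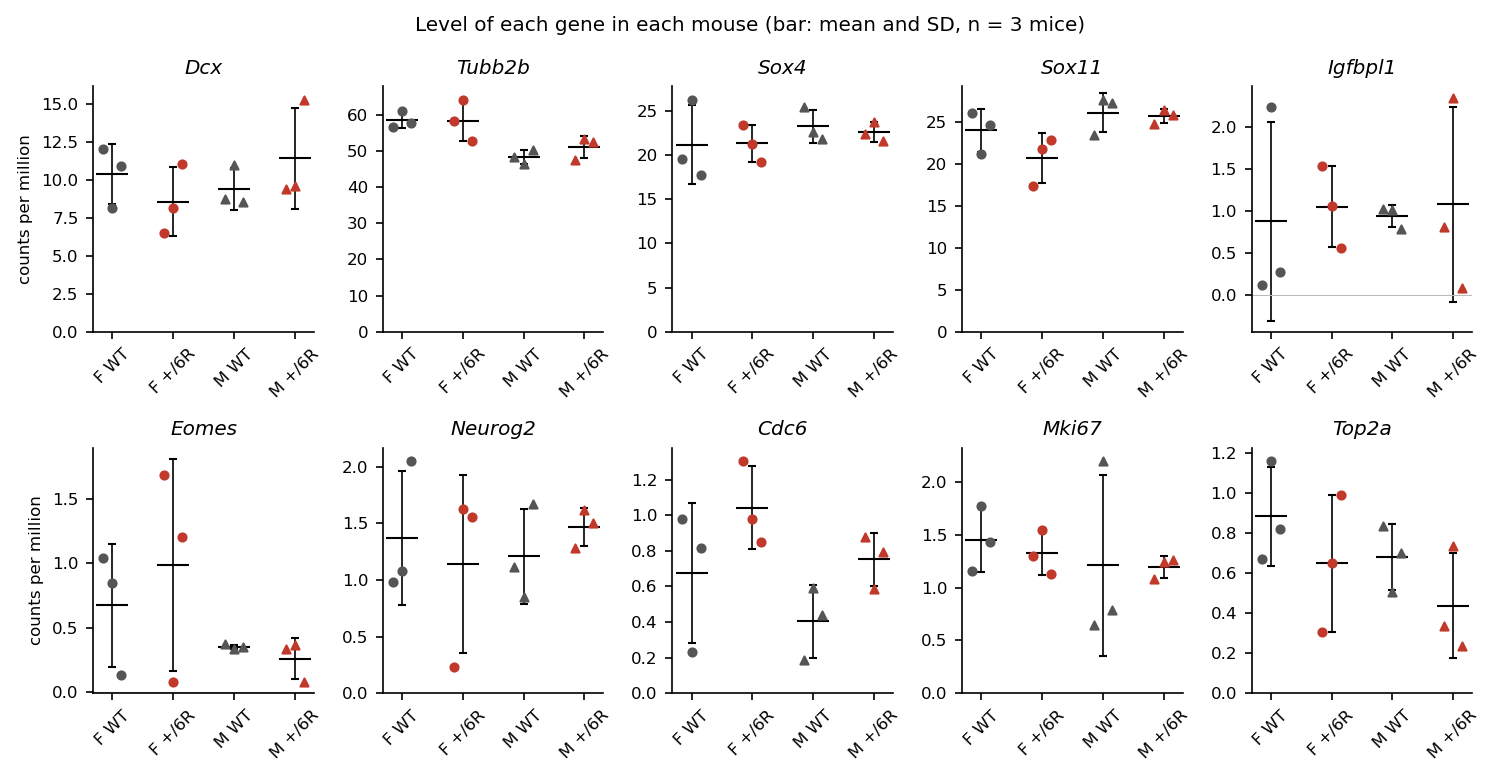
CPM of each gene in every mouse, by sex (F, M) and genotype, with mean and SD over 3 mice as bars. The genotypes overlap in all 10 panels, with Tubb2b between 46.5 and 64.2 CPM and Igfbpl1 between 0.0792 and 2.35 CPM.

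The intermediate progenitor genes were rare. Eomes (Entrez 13813, chr9:118478186-118486132, GRCm38, plus strand), the T-box factor of these progenitors, was counted 17, 11 and 2 times in the WT females and 4 times in each WT male. In Nell-1+/6R it was counted 22, 1 and 17 times in the females and 5, 5 and 1 times in the males. The 4 highest mice were females, 2 of each genotype. By genotype the fitted log2 fold change was 0.23 (SE 0.57, adjusted p = 1.00 in edgeR), whereas the difference in mean log2 CPM had the opposite sign (-0.06, exact permutation p = 0.896). By sex it was -1.42, male minus female (adjusted p = 0.868, edgeR). A count of 1 in a mouse leaves this gene close to the limit of detection. Its mean RPKM over all mice lay at the 8.54th percentile of the tested genes that have an annotated exon length.

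Neurog2 (Entrez 11924, chr3:127632733-127635636, GRCm38, plus strand), a proneural basic helix-loop-helix factor that acts just before Eomes, was counted 16, 14 and 30 times in the WT females and 12, 10 and 19 times in the WT males. In Nell-1+/6R the females had 3, 20 and 22 counts and the males 19, 22 and 19. A single Nell-1+/6R female was low, at 0.230 CPM, and the other 5 Nell-1+/6R mice lay between 1.29 and 1.63 CPM, above the WT median of 1.10 CPM. With all mice the fitted log2 fold change was 0.00 (SE 0.36, adjusted p = 1.00 in edgeR), with an interval of 0.591- to 1.70-fold, and the difference in mean log2 CPM was -0.09 (exact permutation p = 0.905).

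The dividing-cell genes are taken in the order of the cycle. Cdc6 loads the replicative helicase onto origins in G1, and its gene is a classical target of E2F factors. Mki67 encodes the Ki-67 protein, present in all active phases of the cycle and coating mitotic chromosomes. Top2a encodes DNA topoisomerase II alpha, which untangles sister chromatids and peaks in G2 and mitosis.

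Cdc6 (Entrez 23834, chr11:98907709-98923942, GRCm38, plus strand) came nearest to the thresholds, and 3.93% of its 50-base stretches also occur in Gm9430. The WT females had 16, 3 and 12 counts and the WT males 2, 7 and 5, in all 45. In Nell-1+/6R the females had 17, 12 and 12 counts and the males 13, 8 and 10, in all 72. The WT mean was 0.541 ± 0.317 CPM and the Nell-1+/6R mean 0.898 ± 0.237 CPM (SD, n = 6). All 6 Nell-1+/6R mice lay above the WT median of 0.516 CPM, but the highest WT mice overlapped them. Cdc6 had a log2 fold change of 0.70 (SE 0.33, unadjusted p = 0.0511 and adjusted p = 1.00 in edgeR), with an interval of 0.997- to 2.65-fold, and the exact two-sided permutation test over all splits of the 12 mice into 6 and 6 gave p = 0.0563. The estimate was positive in females (0.58, SE 0.45) and in males (0.86, SE 0.52), and the interaction was 0.28 (SE 0.68, adjusted p = 0.987, edgeR). Its side of the thresholds turned on the tool and on single mice. In limma-voom with sex, which called 1.49% of all genes, it was called with a log2 fold change of 0.80. Leaving out 1 mouse gave 0.51 to 0.90, and the gene was called when the mouse left out was replicate 1 of the WT females (0.90), replicate 3 of the same group (0.79), replicate 2 of the WT males (0.80) or replicate 3 of the Nell-1+/6R females (0.79). The exact permutation p fell to 0.0173 and 0.0325 without replicates 1 and 3 of the WT females and to 0.0433 without replicate 2 of the Nell-1+/6R males. In none of the 23 alternative fits that tested it was the adjusted p below 0.05.

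Mki67 (Entrez 17345, chr7:135689784-135716450, GRCm38, minus strand) ranged from 0.649 to 2.20 CPM in WT (median 1.30) and from 1.08 to 1.55 CPM in Nell-1+/6R (median 1.26). The counts of the WT males, 7, 26 and 9, held both the lowest and the highest mouse, and the 6 Nell-1+/6R mice had 16 to 19 counts each. Its fitted log2 fold change was -0.08 (SE 0.26, adjusted p = 1.00 in edgeR, interval 0.638- to 1.40-fold), and the difference in mean log2 CPM was 0.02 (exact permutation p = 0.935).

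Top2a (Entrez 21973, chr11:98992947-99024199, GRCm38, minus strand) lies 69004 bases from Cdc6 and had the largest negative estimate. It was counted 11, 15 and 12 times in WT females, 9, 6 and 8 times in WT males, 4, 8 and 14 times in Nell-1+/6R females and 5, 10 and 3 times in Nell-1+/6R males. The sums were 61 in WT and 44 in Nell-1+/6R, and 1 of the 6 Nell-1+/6R mice lay above the WT median. A log2 fold change of -0.50 was fitted (SE 0.33, adjusted p = 1.00 in edgeR, 95% interval 0.430- to 1.16-fold), and the exact permutation test gave p = 0.106. Leaving out 1 mouse moved the fitted value between -0.73 and -0.34, and without replicate 3 of the Nell-1+/6R females the exact permutation test gave a difference of -0.67 and p = 0.0390. With all mice Cdc6 and Top2a had estimates of opposite sign, neither of which passed, with Mki67 between them.

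The other genes of the same steps were counted from lists of 102 genes, 99 of them tested. In all 1 was called, Rrm2, which was higher. This is 1.01% of the 99, under the 1.46% of all genes called, and 0.385% of all genes were called higher. At an unadjusted p under 0.05 there were 5 of 99 (5.05%, against 3.26% of all genes), all higher in Nell-1+/6R, and 0 passed adjustment in edgeR. Their median log2 fold change was 0.02, and 57 of 99 were positive.

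**Figure D4:**
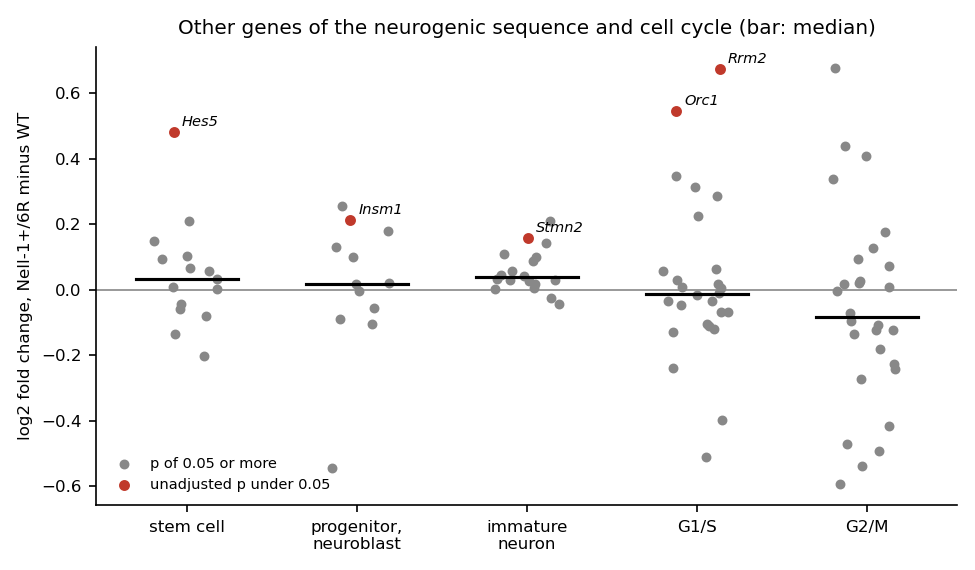
Log2 fold change (Nell-1+/6R minus WT, y axis) of the genes tested in each of the 5 lists, with the median as a bar and genes at an unadjusted p under 0.05 in red. The 5 red genes, Hes5, Insm1, Stmn2, Orc1 and Rrm2, all lie above 0, and the list medians lie between -0.08 and 0.04.

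Among 15 tested genes of radial glia-like stem cells, 0 were called, and the most abundant, Hopx and Id4, had log2 fold changes of 0.09 and 0.03. Hes5, the Notch effector, averaged 8.12 ± 2.39 CPM in WT against 11.5 ± 3.70 CPM in the Nell-1+/6R group (SD, n = 6), a log2 fold change of 0.48 (adjusted p = 1.00, edgeR) that was under the fold threshold. Without replicate 1 of the WT females it was 0.68 and Hes5 was called. Among 12 further progenitor and neuroblast genes, 0 were called. The most abundant, Bhlhe22 and Sox12, had log2 fold changes of -0.0044 and 0.02. Insm1, a zinc-finger factor of intermediate progenitors, averaged 12.9 ± 0.715 CPM in WT against 14.9 ± 1.94 CPM in Nell-1+/6R mice, a log2 fold change of 0.21. Among 18 further immature neuron genes 0 were called, 16 were positive, and the fold changes were small, from -0.04 to 0.21. Map1b and Dclk1, the most abundant of them, had 0.03 and -0.03, and Stmn2, a stathmin of growing axons, 0.16. These 18 genes summed to between 3409 and 4405 CPM in single mice, against 105 to 119 CPM for the immature neuron genes described above. Neurod6 is also on the list of CA pyramidal neuron genes used below. How much of this signal came from immature granule neurons was not tested.

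Replication genes resembled Cdc6 in sign only in part. Of 26 genes of replication licensing and G1/S, 12 were positive and 14 negative. Rrm2, the small subunit of ribonucleotide reductase, was counted 49 times in WT and 80 times in Nell-1+/6R, with a log2 fold change of 0.67 (SE 0.22, adjusted p = 1.00, edgeR), and the call was lost without replicate 1 of the WT females (0.56). Orc1, which binds Cdc6 at origins, had 73 and 111 counts and a log2 fold change of 0.55, under the fold threshold. Leaving out 1 mouse moved it between 0.45 and 0.68, and it was called without replicate 1 of the WT females, 1 of the WT males, 3 of the Nell-1+/6R females or 2 of the Nell-1+/6R males. Pcna, the sliding clamp, had -0.05, and Orc2 -0.04. Of 28 tested genes of G2/M and mitosis 0 were called and 0 had an unadjusted p under 0.05 in edgeR, with 16 negative and a median of -0.08. Its most abundant genes, Anln and Racgap1, had -0.10 and 0.02. In that list, 12 of the genes averaged under 10 counts a mouse. Hes5, Insm1, Stmn2 and Orc1 are named here because their values were seen.

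Because adult-born granule neurons lie in the dentate gyrus, markers of hippocampal fields were counted beside the 10 genes. Mature dentate granule neuron genes had 7 of 10 negative and a median of -0.17, with 0 called, and CA pyramidal neuron genes had 8 of 10 positive and a median of 0.10, with 0 called. An unadjusted p under 0.05 in edgeR was reached by 2 of 10 dentate genes, both lower in Nell-1+/6R, and by 2 of 10 CA genes, both higher, against 3.26% of all genes. The summed level of the dentate genes was 448 to 587 CPM in WT against 424 to 547 CPM in Nell-1+/6R mice. With a score of the dentate genes as a covariate, Cdc6 had a log2 fold change of 0.64, Dcx -0.01 and Tubb2b -0.01, and 0 of the 10 genes were called. Markers of subventricular and olfactory neuroblasts, which also express Dcx, Sox11 and Igfbpl1, had 9 of 10 positive and a median of 0.13, and summed to 108 to 131 CPM in WT against 105 to 141 CPM in Nell-1+/6R mice, with 0 of 10 called and 0 at an unadjusted p under 0.05 in edgeR.

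Among mice of the same sex and genotype, the immature neuron genes did not rise and fall as a block. Of the 45 pairs of genes, 23 had a positive and 22 a negative Pearson correlation of log2 CPM over the 12 mice after removal of the 4 group means, 7 had an unadjusted permutation p under 0.05, and 0 had an adjusted p under 0.05. Dcx and Sox11 varied in the same direction (r = 0.70, rho = 0.69, permutation p = 0.0380 and 0.0389, adjusted p = 0.285 and 0.288, and r = 0.76 without the 2 mice farthest out on Dcx). Sox4 and Igfbpl1 did too (r = 0.75, rho = 0.84, permutation p = 0.0188 and 0.00395, adjusted p = 0.282 and 0.0972, and r = 0.65 without 2 mice). Between these pairs the correlations were negative, with r = -0.81 for Dcx and Igfbpl1 (rho = -0.85, permutation p = 0.00806 and 0.00432, adjusted p = 0.282 and 0.0972, r = -0.72 without 2 mice) and r = -0.77 for Sox4 and Sox11 (rho = -0.73, permutation p = 0.0151 and 0.0220, adjusted p = 0.282 and 0.248, r = -0.85 without 2 mice).

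This pattern moved with an index computed from other genes of each library. A GC index was computed for each library, after the values had been seen, as the mean log2 CPM of the 10% of genes richest in GC minus that of the 10% poorest, centred over the mice and leaving out the 10 genes. It ran from -0.23 to 0.27 in WT and from -0.36 to 0.44 in Nell-1+/6R. Among 11302 other genes with a mean of at least 5 CPM, the main axis of variation held 48.4% of the variance after removal of group means. The weight of a gene on that axis correlated with its transcript GC at r = 0.55. The share of all genes that follow the index was not counted, so the values below cannot be called particular to the 10 genes. After removal of group means, Dcx (transcript GC 40.6%) fell with the index at r = -0.88 (rho = -0.86, permutation p = 0.00226 and 0.00314, adjusted over the 10 genes 0.0226 and 0.0157), and at r = -0.82 without the 2 mice farthest out. Sox4 (GC 51.1%) rose with it at r = 0.80 (rho = 0.90, permutation p = 0.00799 and 0.000950, adjusted 0.0399 and 0.00950), and at r = 0.81 without those mice. Igfbpl1 had r = 0.69 (rho = 0.80, permutation p = 0.0381 and 0.00886, adjusted 0.0953 and 0.0295; r = 0.75 without 2 mice) and Sox11 r = -0.73 (rho = -0.66, permutation p = 0.0275 and 0.0470, adjusted 0.0918 and 0.117; r = -0.58 without 2 mice). For the other 6 genes r lay between -0.45 and 0.58 with unadjusted permutation p of at least 0.0993. The values for Cdc6 (r = -0.40), Top2a (r = 0.01) and Neurog2 (r = -0.45) became -0.80, 0.80 and 0.02 without those 2 mice, so they rest on which mice are included. Direction did not follow transcript GC over all 10 genes. Igfbpl1 (GC 55.7%) rose with the index and Sox11 (46.5%) fell. Neurog2 was the richest in GC at 55.9%, with Top2a at 43.4% and Cdc6 at 49.2%. Eomes (53.9%) had r = 0.15, Tubb2b (51.2%) r = 0.58 and Mki67 (46.6%) r = -0.11. The part of transcript GC was not tested.

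**Figure D5:**
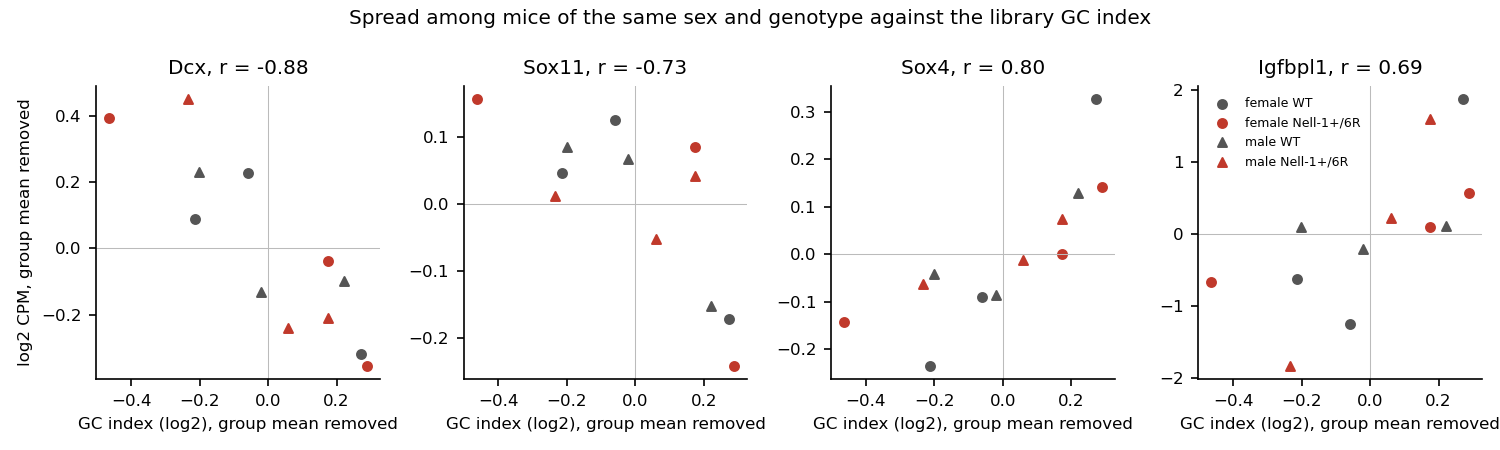
Log2 CPM of Dcx, Sox11, Sox4 and Igfbpl1 (y axis) against the library GC index (x axis, log2), both with the mean of each sex and genotype removed, 1 point per mouse. Dcx (r = -0.88) and Sox11 (r = -0.73) fall with the index, and Sox4 (r = 0.80) and Igfbpl1 (r = 0.69) rise.

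With the index as a covariate the genotype estimate of Dcx was 0.01 with an SE of 0.11, against 0.18 without it. That of Sox4 was -0.03 (SE 0.07), that of Sox11 -0.11 (SE 0.06) and that of Igfbpl1 0.10 (SE 0.48). Cdc6 had 0.75 (SE 0.34, adjusted p = 0.882, edgeR) and was then called, in a fit that called 1.62% of all genes, and the other 9 genes were not.

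The genes whose pattern was most like that of Dcx over the 12 mice, with group means removed, were Chl1 (r = 0.97), Tfrc (r = 0.97), A830018L16Rik (r = 0.96), Guf1 (r = 0.96) and Hecw2 (r = 0.96). For Mki67 they were Tbc1d7 (r = 0.86), Slc29a3 (r = 0.86), Ttc41 (r = 0.85), Cfap46 (r = 0.83) and Erich6 (r = 0.83). Only genes with a mean of at least 1 CPM were ranked. These are the highest of many values over 12 mice, and are given as a description only.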

How the data were processed

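Gene-level read counts of 12 hippocampi were used as the authors deposited them, as whole-number counts per Entrez identifier. Reads had a stated length of 50 bases, and the submitters' processing notes name HISAT2 2.1.0, featureCounts 2.0.1 and mm10. The sources used here do not state whether counting used strand. Groups came from the sample labels. Symbols were matched through RefSeq (25275 of 27179 identifiers), gene positions come from RefSeq (GRCm38.p6), and exon lengths and transcript sequences from GENCODE M21. The 17937 genes reaching a CPM of 0.2 in 2 or more mice were fitted with edgeR 4.0.16 (TMM, quasi-likelihood F test, sex and genotype in the model, all 12 mice) with Benjamini-Hochberg adjustment over all of them. R 4.3.3, limma 3.58.1 and DESeq2 1.42.0 gave alternatives, as did other filters, leaving out each mouse and covariates. Scripts were tested on simulated data. Single genes were compared by exact permutation of log2 CPM (prior count 2; all splits into 6 and 6, smallest two-sided p 0.00216), correlations by 100000 permutations. The p-values measure spread between mice, and count precision is limited where a gene has few reads. Named genes were the 10 genes, Nell1, list genes past the thresholds (the leptomeningeal ones given as a count), the 2 most abundant of each list (printed for the pathway lists), and the 5 nearest in pattern to Dcx and to Mki67. The members and lists were chosen with earlier results of these data known.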

Additional observations from a re-analysis of the deposited data

Results flagged for a closer look

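Neurog2 in female Nell-1+/6R replicate 1 stood far below the other 5 Nell-1+/6R mice, at 0.230 CPM (3 counts) against 1.29 to 1.63 CPM. It was the single such value in the 20 groups tested (10 genes in 2 genotypes), and chance gives about 1 in 20. The same mouse had the highest library GC index (0.44), whose part in the low value was not tested. Without it the log2 fold change of Neurog2 was 0.25.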

How the results depend on the processing

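Low counts limit the rare genes most: a CPM minimum of 1 in 6 mice left Cdc6, Eomes and Top2a untested, filterByExpr left Eomes and Top2a untested, and the genotype estimates of Eomes, Igfbpl1, Cdc6 and Top2a rest on 93, 153, 117 and 105 counts in all. The count of the 10 genes past the thresholds, 0 in the reported fit, was 1 (Cdc6) with limma-voom with sex (1), limma-voom with genotype alone (1) and the library GC index as covariate (1, added after seeing the data), and 0 to 1 when each mouse was left out in turn. It stayed at 0 with DESeq2, DESeq2 size factors, upper-quartile factors, the filters tried (over the genes each left tested), edgeR with genotype alone and the dentate score. The count of called pathway-list genes, 1, was 0 at the stricter filter, which left Rrm2 untested, 2 with the dentate score as covariate, and 1 to 2 without 1 mouse, with 2 when the mouse left out was replicate 1 of the WT females, 1 or 3 of the WT males, 3 of the Nell-1+/6R females or 2 of the Nell-1+/6R males. Hes5 and Orc1 were among the genes gained. No uncalled gene became called other than Cdc6 among the 10, and the cause was not tested.

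Estimates of 7 of the 10 genes changed sign under some setting, among them Igfbpl1 and Eomes with 0.26 and 0.23 in the reported fit. Dcx became 0.0021 with DESeq2 size factors, 0.0028 with DESeq2, 0.011 in edgeR with genotype alone and 0.0107 with the GC index. Sox4 became 0.0015 and Mki67 0.0049 in limma-voom, without and with sex. Eomes became -0.039 and -0.18, and Neurog2 -0.11 and -0.13, in limma-voom with and without sex. With the dentate score Tubb2b became -0.0059, Igfbpl1 -0.046 and Neurog2 -0.00017. In the permutation test on CPM in place of log2 CPM the differences were 0.11 for Dcx, 0.11 for Eomes, 0.015 for Neurog2 and -0.071 for Mki67, against -0.02, -0.06, -0.09 and 0.02 on log2 CPM. Leaving out 1 mouse moved the fitted estimate between -0.15 and 0.10 for Dcx, -0.070 and 0.060 for Sox4, -0.19 and 0.94 for Igfbpl1, -0.18 and 0.54 for Eomes, -0.11 and 0.25 for Neurog2, and -0.22 and 0.19 for Mki67, with no change of sign for Tubb2b (0.011 to 0.075), Sox11 (-0.17 to -0.060), Cdc6 (0.51 to 0.90) or Top2a (-0.73 to -0.34). The permutation difference moved between -0.15 and 0.093 for Dcx, -0.0096 and 0.077 for Tubb2b, -0.071 and 0.041 for Sox4, -0.13 and 0.61 for Igfbpl1, -0.40 and 0.20 for Eomes, -0.18 and 0.27 for Neurog2, and -0.14 and 0.17 for Mki67. The interaction moved between 0.29 and 0.78 for Dcx, -0.23 and 0.059 for Sox4, -2.17 and 0.44 for Igfbpl1, -0.083 and 0.65 for Cdc6, -0.21 and 0.85 for Mki67, and -0.78 and 0.24 for Top2a.

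The sources used here do not say whether replicate numbers mark litters. Same-numbered mice deviated together at r of 0.32, 0.075 and 0.52 in females and 0.21, -0.54 and -0.0065 in males, so not every pair was over 0.1 and the pairing was not used. With a replicate block the count of called genes stayed at 0, Cdc6 had 0.75 and Neurog2 -0.034.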
